A study of Mus musculus with 12 samples.

Results

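The small RNA content of control cells was described from 4 sequencing libraries out of the 12 in the series, those made with the guide sgGal4-4 and titled 1 to 4. Gal4 is a yeast transcription factor, and guides against it are used as non-targeting controls in mouse cells. The cells were stem-like medulloblastoma cells, with the cerebellum given as source, and carried Math1-Cre and SmoM2. Medulloblastoma is a tumour of the cerebellum. Math1-Cre directs recombination to the granule neuron lineage, and SmoM2 is an activated form of Smoothened, the transducer of Hedgehog signalling. The labels also mark these controls as WT, while giving them that genotype. The other libraries of the series carried guides against the long non-coding RNA Miat or the gene Mtdh and were not analysed here. Whether the 4 control libraries came from separate cultures or from 1 culture is not in the labels, so the spread between them may be technical.

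Small RNAs fall into families with distinct work. MicroRNAs (miRNAs) are cut from hairpins and guide Argonaute proteins to messenger RNAs through bases 2 to 8, the seed. C/D box small nucleolar RNAs (Snord genes) guide ribose methylation of ribosomal RNA, and H/ACA box small nucleolar RNAs (Snora genes) guide pseudouridylation. Small Cajal body RNAs (Scarna genes) do the same for spliceosomal RNAs. RNase MRP and RNase P are ribonucleoproteins that cut precursors of ribosomal and transfer RNA. Most mammalian small nucleolar RNAs are released from introns of other genes, their hosts, and some hosts, the Snhg genes and Gas5, are long non-coding RNAs.

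Each table listed 4529 non-coding transcripts, and 1085 of these had a count in at least 1 control. The controls held 34263, 48734, 42727 and 65240 counts in libraries 1 to 4, of which 2369, 3554, 3016 and 4568 were on miRNA rows. Library 4 was the deepest and library 1 the shallowest. A single count equalled 15.3 to 29.2 CPM (counts scaled to 1000000 per library), so a transcript at 0 in a library may have stood at up to 46.0 to 87.6 CPM there, the value of 3 counts. Intervals of this kind cover counting error only. No 2 controls were the same library deposited again: a chi-square test over transcripts gave 2.92 to 4.30 per degree of freedom for the 6 pairs.

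The ribosomal precursor Rn45s, the long transcript from which 3 of the ribosomal RNAs are cut, took more than any other row. Its share of all counts was 55.3%, 54.0%, 53.0% and 55.4% in libraries 1 to 4, or 54.4% ± 1.16 (SD, n = 4). The RNase P and MRP RNAs came next with 13.2%, 14.1%, 13.7% and 13.04%, a mean of 13.5% ± 0.495 (SD, n = 4). C/D box snoRNAs held 12.9%, 13.3%, 13.5% and 13.1%, a mean of 13.2% ± 0.277 (SD, n = 4). The values of these last 2 classes overlapped, so their order was not resolved.

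MiRNAs held 6.91%, 7.29%, 7.06% and 7.002% of counts, a mean of 7.07% ± 0.162 (SD, n = 4). Below them stood host transcripts (4.06% ± 0.318), non-coding isoforms of protein-coding genes (2.69% ± 0.232), other long non-coding RNAs (1.88% ± 0.0433) and Cajal body RNAs (1.79% ± 0.137, all SD, n = 4). The ranges of the last 2 overlapped, although long non-coding RNAs stood above Cajal body RNAs in each library. These shares kept repeated rows. With repeated rows counted once, long non-coding RNAs held 1.39% and Cajal body RNAs 1.82%, so the order of these classes depended on that choice. The isoform class had 965, 1268, 1255 and 1575 counts in libraries 1 to 4. Rabggtb rows of 1558 and 1574 bases each held 317, 414, 395 and 467 of these. Snord45c, inside Rabggtb, had 317, 411, 395 and 465. Pseudogene transcripts and H/ACA box snoRNAs, whose ranges overlapped, held 0.592% ± 0.0817 and 0.540% ± 0.0324, and the remaining small RNAs 0.241% ± 0.0310 (SD, n = 4). C/D box snoRNAs thus took many times the counts of H/ACA box snoRNAs in each library. With Rn45s set aside, RNase P and MRP RNAs made up 29.7% of counts, C/D box snoRNAs 29.0% and miRNAs 15.5%.

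**Figure D1:**
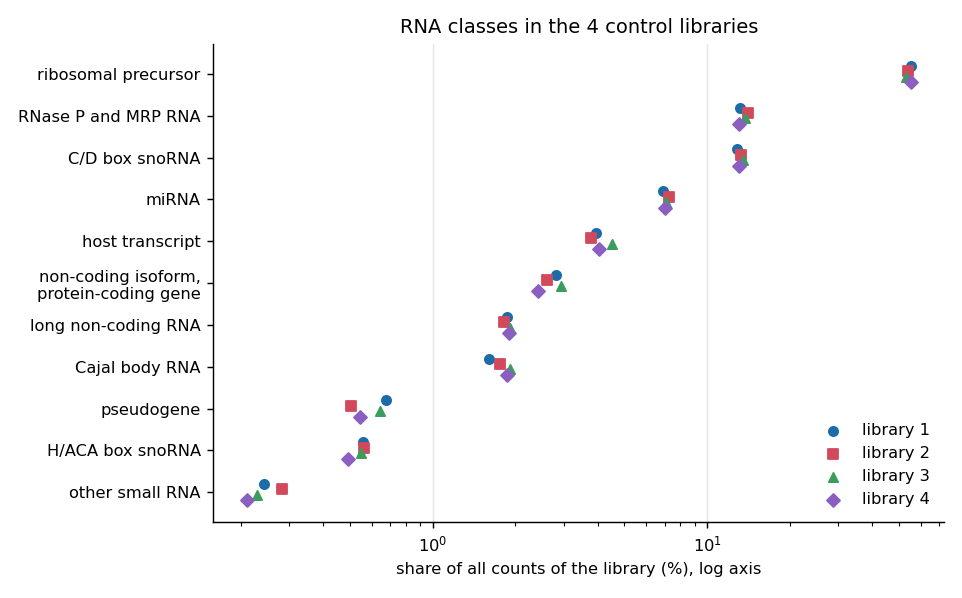
Share of all counts (log axis, percent) of each RNA class, with 1 point per control library and the classes ordered by mean. The 4 libraries lie close together for the large classes, from 53.0% to 55.4% for the ribosomal precursor and from 6.91% to 7.29% for miRNAs.

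The cell type label was set against marker RNAs. Of 15 markers of neural progenitors and the granule lineage, 14 had a count, with 397, 504, 482 and 738 counts in libraries 1 to 4. Most of these counts were on 4 miR-181 genes, the 3 miR-9 genes and Mir92b. Mir17, Miat and Pantr1 had only 8, 3 and 2 counts over the 4 libraries, and Sox2ot, a defining marker on the list, was at 0. Miat, Pantr1 and Sox2ot are long transcripts, whose levels small RNA libraries do not measure. The sums include Mir17hg, whose 93 counts nearly repeat the 91 of Mir92-1, also on the list. Copies of miR-9 and of miR-181 that share a mature sequence may also repeat each other's reads. Neuron markers summed to 8 counts, all on Mir128-1 and Mir128-2, and the 3 genes of miR-124, an abundant miRNA of mature neurons, were at 0. Markers of oligodendrocytes summed to 2 counts and those of blood and immune cells to 1. Endothelial and mural, muscle, liver and pluripotent markers were all at 0. Several of the progenitor markers are also expressed in other proliferating cells.

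Sequences of leading miRNAs and of relatives are shown, mostly for the shared seeds that link them. They come from RefSeq (GRCm38.p6), which held a mature sequence for 150 of the 160 miRNA symbols with a count, and not for Mir30d. MiR-125b-5p, of low counts, is shown for the seed it shares with miR-351-5p. The seed of miR-6538 was found in no other hairpin with a count and a sequence. Capitals mark the seed. The rows count whole hairpin genes, so the counts do not tell which arm was sequenced, and the arm printed is the one best known as the guide strand.
miR-6538: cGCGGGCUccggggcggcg
miR-351-5p: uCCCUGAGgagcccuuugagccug
miR-125b-5p: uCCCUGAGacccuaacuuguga
miR-181a-5p: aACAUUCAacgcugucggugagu
miR-181b-5p: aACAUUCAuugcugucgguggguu
let-7b-5p: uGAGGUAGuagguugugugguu
let-7c-5p: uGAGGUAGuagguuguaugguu
miR-9-5p: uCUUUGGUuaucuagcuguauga
miR-92a-3p: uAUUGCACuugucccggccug
miR-92b-3p: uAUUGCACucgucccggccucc
miR-30a-5p: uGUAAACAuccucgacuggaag
miR-20a-5p: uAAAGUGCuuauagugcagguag
Hairpins with the seed ACAUUCA, 5 miR-181 genes, held 1453 counts over the 4 libraries. Those with CCCUGAG, Mir351 and 3 miR-125 genes, held 684, nearly all from Mir351. Hairpins with GAGGUAG, let-7 genes with Mir98 and Mir1961, held 522, without the 18 counts of Mirlet7a-2, for which the table gives only the 3p arm. The 4 genes with AUUGCAC, Mir25, Mir92-1, Mir92-2 and Mir92b, held 259, and the 3 miR-9 genes 306. Where genes share a mature sequence, such sums may count a read more than once.

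Ranks within a class are by share of its counts, and levels of different genes are compared per kilobase of row length. By that level 19 of the 20 leading miRNAs, 10 of the 12 leading C/D box and all 10 leading H/ACA box snoRNAs were again among the leaders. Such levels take reads to cover a row evenly, which was not tested.

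A single gene, Mir30d, dominated the miRNAs. It had 1231, 2024, 1537 and 2491 counts in libraries 1 to 4, or 52.0%, 57.1%, 51.1% and 54.8% of miRNA counts, a mean of 53.7% ± 2.74 (SD, n = 4). It was first in every library, and no other miRNA came near its range. The gene lies at chr15:68341208-68341289 (GRCm38, minus strand), in an exon of the long non-coding gene Gm20732 in GENCODE. The other 6 miR-30 genes were low, with Mir30a at 10, 20, 16 and 30 counts and the rest at 7 to 18 counts over all 4 libraries. The whole miR-30 family reached 54.7% ± 2.77 (SD, n = 4) of miRNA counts, little more than Mir30d alone.

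Mir6538, in an intron of Rnf144a, was second in all 4 libraries with 247, 307, 307 and 373 counts. Its share of miRNA counts was 10.4%, 8.66%, 10.2% and 8.21%, a mean of 9.37% ± 1.11 (SD, n = 4). Libraries 1 and 3 were higher than 2 and 4. Mir6236, outside any host gene, was sixth with 58, 66, 47 and 100 counts. Whether reads of the ribosomal precursor Rn45s reached the Mir6538 and Mir6236 rows was not tested.

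Mir351 and Mir181a-1 came next by share of counts, and their order differed between libraries. Mir351, on the X chromosome in the cluster with Mir322 and Mir503, had 103, 173, 136 and 226 counts, 4.68% ± 0.295 (SD, n = 4) of miRNA counts. Mir181a-1 had 119, 132, 132 and 197 counts, 4.37% ± 0.532 (SD, n = 4), and stood above Mir351 in library 1 alone. Per kilobase of hairpin the order of means was the reverse, with 35318 ± 3611 CPM for Mir181a-1 and 33341 ± 2538 for Mir351 (SD, n = 4), and the spreads overlapped. The cluster neighbours of Mir351, Mir503 and Mir322, had 7 and 0 counts over all libraries. Genes of 1 cluster thus ranged from 638 counts to none.

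MiR-181, a family expressed in brain and lymphoid cells, was the next largest. Its 6 genes held 282, 340, 326 and 505 counts, 10.9% ± 0.962 (SD, n = 4) of miRNA counts. Mir181b-2 had 54, 88, 96 and 142 counts, Mir181a-2 had 59, 73, 37 and 92, and Mir181b-1 had 45, 43, 55 and 69. Mir181d had 20 counts over the 4 libraries and Mir181c none. Of the pair on chromosome 2, Mir181b-2 was above Mir181a-2 in 3 of 4 libraries, and of the pair on chromosome 1, Mir181a-1 was above Mir181b-1 in all 4. Mir181a-1 and Mir181a-2 share mature miR-181a-5p, and Mir181b-1 and Mir181b-2 share miR-181b-5p. Reads of those arms cannot be assigned to 1 locus, so these are orders of rows and were not read as orders of transcription. Whether a read was counted at more than 1 copy is not known. Sums over copies, here and in other families, and the miRNA total may thus count a read more than once.

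The let-7 family, which restrains growth genes and rises with differentiation, held 96, 122, 157 and 146 counts, 3.98% ± 0.897 (SD, n = 4) of miRNA counts. Of its 13 genes, 12 had a count, and Mirlet7b led with 41, 43, 64 and 56. Library 3 was the highest for Mirlet7b by share. Mirlet7c-2 and Mirlet7c-1, which share mature let-7c-5p, followed with 85 and 76 counts over the 4 libraries. Mirlet7k was at 0.

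The 3 genes of miR-9, a miRNA of neural progenitors, encode the same mature sequences and had nearly the same counts. Mir9-2 had 18, 21, 29 and 36 counts, Mir9-1 had 18, 23, 25 and 36, and Mir9-3 had 18, 21, 27 and 34. Reads from the 3 loci cannot be told apart in the mature sequence, so their equality was not read as equal transcription. Mir7-1 and Mir7-2, which also share a mature sequence, had 40 and 33 counts in all. The 2 copies of miR-128 had the same counts as each other in every library (0, 3, 0 and 1).

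Genes of the miR-17~92 cluster and its paralogues, known for driving proliferation, held 46, 57, 38 and 78 counts, 1.63% ± 0.283 (SD, n = 4) of miRNA counts. Members of the cluster in Mir17hg differed widely. Mir92-1 had 91 counts over the 4 libraries, Mir20a 50, Mir18 10, Mir17 8, Mir19a 3 and Mir19b-1 2. Mature miR-92a-3p of Mir92-1 is shared with Mir92-2. The 2 counts of Mir19b-1 were both in library 2, too few for a ratio. Mir92b, of the same seed but a separate gene on chromosome 3, stood above Mir92-1 in all 4 libraries with 19, 42, 31 and 43 counts.

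Other families had fewer counts. The miR-125, miR-99 and miR-100 genes held 111 counts, with Mir99b at 10, 16, 11 and 17. Mir26b had 29 counts and Mir21a 17. Mir29b-2 was the only miR-29 gene with a count, at 2. The miR-10, miR-34 and miR-124 genes were at 0 in all 4 libraries, which allows up to 46.0 to 87.6 CPM per library.

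The tables listed 1116 miRNA symbols, of which 160 had a count in some control and 57 in all 4. The 10 leading genes held 83.9% ± 1.12 and the 20 leading genes 90.5% ± 0.617 (SD, n = 4) of miRNA counts. Among the 19 neighbouring pairs of the 20 leading genes, 15 had ranges of share that overlapped over the libraries. The breaks were Mir30d over Mir6538, Mir6538 over Mir351, Mir181a-1 over Mir181b-2, and, narrowly, Mirlet7b (1.21% to 2.13%) over Mir92b (0.802% to 1.18%). In CPM the last pair overlapped too. The other neighbours had overlapping ranges, although Mir92b stood above Mir9-2 in every library.

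**Figure D2:**
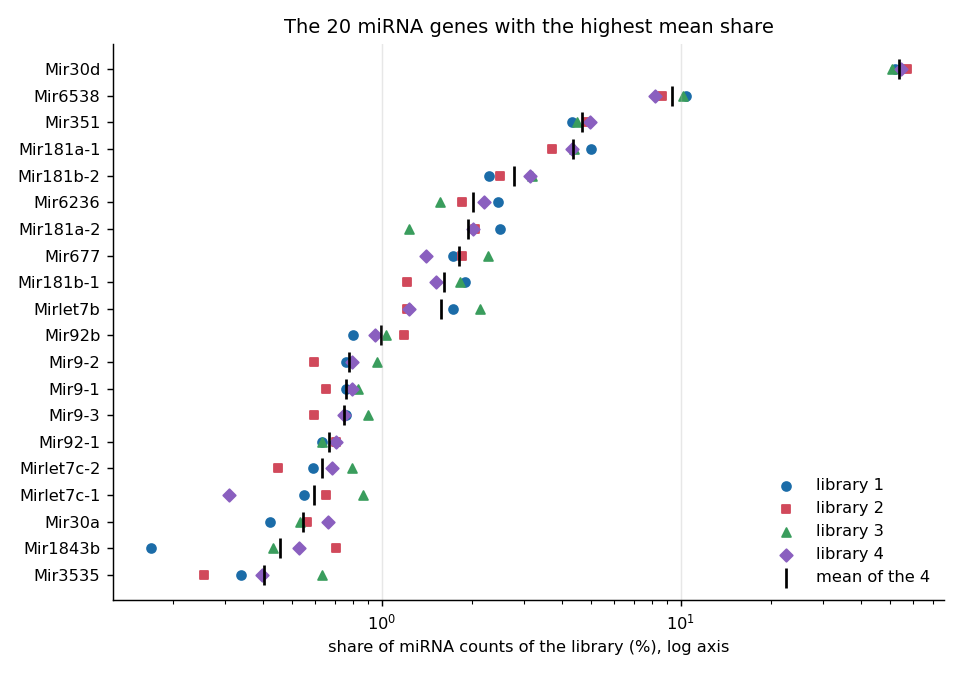
The 20 miRNA genes with the highest mean share, each with its share of miRNA counts (log axis, percent) in 4 control libraries as points and the mean as a bar. Mir30d at 51.1% to 57.1% stands apart, Mir6538 follows at 8.21% to 10.4%, and from Mir6236 downwards the points of neighbours overlap, except those of Mirlet7b and Mir92b.

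Some miRNA rows sat on other small RNA genes. GENCODE annotates a snoRNA or Cajal body RNA on the same strand at 9 of the 160 miRNA loci with a count, and these held 2.87% ± 0.489 (SD, n = 4) of miRNA counts. Mir677, eighth among miRNAs with 41, 66, 68 and 64 counts, lies in an intron of Atp5b and is itself typed as a snoRNA gene there. Mir3535, with 8, 9, 19 and 18 counts, overlaps a snoRNA gene inside Ncl over 80 bases. Mir1843b had 4, 25, 13 and 24 counts and Scarna3a, which covers 65 of its bases, had 4, 27, 13 and 24. Other overlapping pairs had unequal counts, with Mir1843a at 10 in all against 18 for Scarna3b, and Mir5121 at 2 against 20 for Snord33. Counts where such genes overlap cannot be assigned to 1 of the 2. Equal counts also occurred in a pair on opposite strands: Mir30e and Mir30f had 2, 4, 1 and 0 counts each.

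C/D box snoRNAs spread their counts over more genes than miRNAs. Of 75 symbols, 67 had a count and 62 had one in all 4 libraries. The 5 leading genes held 57.1% ± 2.22 and the 20 leading genes 86.8% ± 0.930 (SD, n = 4) of class counts, and 25 genes were needed for 90%. Among the miRNAs 19 genes were enough.

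The leading C/D box snoRNAs are shown with their boxes, the sites bound by the core proteins. Sequences are GENCODE M21 transcripts (GRCm38), and capitals mark TGATGA (box C) and CTGA (box D) where these letters were found within 20 bases of the 5′ and 3′ ends on the transcribed strand.
Snord15a: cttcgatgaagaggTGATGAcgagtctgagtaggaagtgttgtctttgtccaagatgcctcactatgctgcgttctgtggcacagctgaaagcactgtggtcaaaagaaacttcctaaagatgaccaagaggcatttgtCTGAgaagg
Snord15b: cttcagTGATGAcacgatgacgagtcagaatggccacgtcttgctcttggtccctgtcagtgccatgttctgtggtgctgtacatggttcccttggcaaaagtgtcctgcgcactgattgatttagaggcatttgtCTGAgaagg
Snord19: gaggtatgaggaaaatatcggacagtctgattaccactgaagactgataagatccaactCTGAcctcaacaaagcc
Snord47: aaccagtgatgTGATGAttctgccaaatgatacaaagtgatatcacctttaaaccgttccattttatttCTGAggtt
Snord49a: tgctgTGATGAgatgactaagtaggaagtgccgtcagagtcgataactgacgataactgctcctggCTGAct
Snord45c: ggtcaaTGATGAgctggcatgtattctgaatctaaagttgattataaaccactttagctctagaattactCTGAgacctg
Snord1b: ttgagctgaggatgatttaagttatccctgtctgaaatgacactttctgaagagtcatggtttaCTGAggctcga
Snord1c: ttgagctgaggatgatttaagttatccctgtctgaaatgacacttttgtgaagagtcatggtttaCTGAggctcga
Of the 67 C/D box genes with a count, all matched to GENCODE, 65 held CTGA in that window and 41 held TGATGA. Of the 29 H/ACA box genes with a count, 4 held CTGA there and none held TGATGA anywhere. The absence of the exact letters, as in Snord19, says nothing of the box itself. Snord1b and Snord1c are nearly the same sequence, so reads could be shared between them, yet they had 493 and 29 counts.

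Snord15a, in an intron of the ribosomal protein gene Rps3 at chr7:99482785-99482932 (minus strand), was first in all 4 libraries. It had 732, 988, 845 and 1438 counts, 15.8% ± 1.08 (SD, n = 4) of C/D box counts. Snord19, in Gnl3, the gene of a nucleolar GTPase, at chr14:31016219-31016272 (minus strand), had 584, 854, 741 and 1156 counts, 13.2% ± 0.309. It had the lowest coefficient of variation (CV, the SD over the mean of CPM) of the transcripts named in all classes, with a CV of 1.65% against 3.56% from counting error alone.

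Snord47, in Gas5 at chr1:161038092-161038156 (plus strand), had 594, 763, 561 and 969 counts, 11.6% ± 1.53 (SD, n = 4) of C/D box counts. Library 1 was the highest by share, at 13.4%, and library 3 the lowest, at 9.71%. Snord49a, in the long non-coding gene 2410006H16Rik, had 343, 647, 601 and 1042 counts and went from 7.76% of the class in library 1 to 12.2% in library 4. Its CV was 18.6% against 4.00% from counting, so it varied well beyond counting error. Snord45c, in Rabggtb, a subunit of Rab geranylgeranyl transferase, had 317, 411, 395 and 465 counts, 6.45% ± 0.744.

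The order of these genes by level was not the order by counts, since Snord15a is the longest. Per kilobase of the row's length, Snord19 led with 322362 ± 5309 CPM, before Snord47 with 234522 ± 26899, Snord49a with 215019 ± 40097, Snord15a with 140973 ± 6944 and Snord45c with 139581 ± 16414 (SD, n = 4). The rows were often shorter than the gene model: the Snord19 row covered 54 bases and its GENCODE sequence 76. Levels per kilobase of such rows carry that uncertainty.

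The next 7 genes, Snord83b, Snord42b, Snord82, Snord11, Snord91a, Snord1b and Snord88a, held 3.96% to 1.87% of the class each. Snord83b had 161, 238, 267 and 335 counts, Snord42b had 147, 192, 231 and 260, and Snord82 had 121, 195, 156 and 237. Their hosts Rpl3, Rpl23a and Ncl encode 2 ribosomal proteins and the nucleolar protein nucleolin. Of the 19 neighbouring pairs among the 20 leading genes, 16 had overlapping ranges. The breaks were Snord15a over Snord19, Snord49a over Snord45c, and Snord45c over Snord83b.

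By kind of host, C/D box counts divided into 39.4% ± 0.625 in protein-coding genes other than those of ribosomal proteins (30 snoRNAs), 30.8% ± 0.686 in ribosomal protein genes (21) and 29.6% ± 0.683 in long non-coding genes (15; all SD, n = 4). Snord104 alone lay outside a host gene. The 3 shares varied little between libraries. Many hosts here encode parts of the ribosome or its assembly machinery, among them Nop58 and Nop56, which are C/D box core proteins.

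Guests of the same host stood at very different levels. Snord15a and Snord15b, both in Rps3, had 4003 and 81 counts over the 4 libraries, 45.8-fold apart per kilobase. In Gnl3, Snord19 had 3335 counts and Snord69 196, 18.3-fold apart per kilobase. In Rpl23a, Snord42b had 830 counts, Snord42a 114 and Snord4a 12. In contrast, Snord83b and Snord43 in Rpl3 differed 1.62-fold per kilobase, and Snord88a and Snord88c differed 1.33-fold.

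Of the 16 listed snoRNAs with a part in ribosomal RNA processing, 6 were rows of the tables. Snora62 had 54 counts and Snord22 15, and Snord118, Snord14a, Snord14c and Snord14d were at 0. The brain cluster genes Snord116, Snord116l1 and Snord116l2, expressed from the Prader-Willi region in neurons, were at 0 as well. Snord64, from the same region, had 1, 11, 27 and 11 counts. Library 1 was the lowest for Snord64 and library 3 the highest, with a CV of 98.1% against 29.1% from counting.

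**Figure D3:**
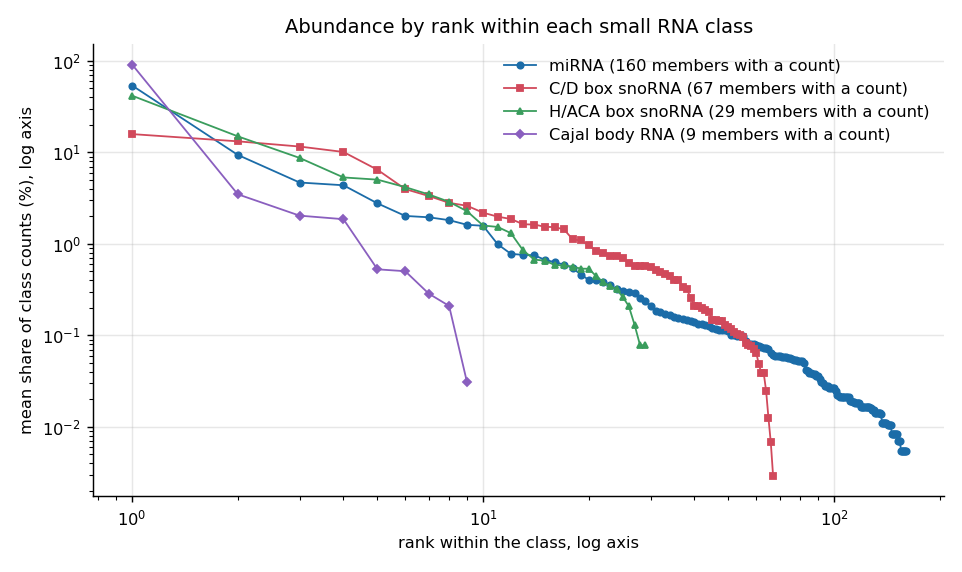
Mean share of class counts over the 4 control libraries against rank within the class (both axes log) for miRNAs, C/D box snoRNAs, H/ACA box snoRNAs and Cajal body RNAs. Cajal body RNAs and miRNAs start with 1 dominant member at 91.1% and 53.7%, whereas the C/D box line starts at 15.8% and falls slowly over its first genes.

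H/ACA box snoRNAs were few in counts but led by 1 gene. Snora7a, in the ribosomal protein gene Rpl32 at chr6:115807975-115808103 (minus strand), is shown with its ACA box, which in this class stands 3 bases from the 3′ end and is marked in capitals.
Snora7a: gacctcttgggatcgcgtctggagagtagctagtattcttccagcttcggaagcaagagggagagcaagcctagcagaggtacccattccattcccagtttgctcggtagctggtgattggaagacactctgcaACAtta
Snora31: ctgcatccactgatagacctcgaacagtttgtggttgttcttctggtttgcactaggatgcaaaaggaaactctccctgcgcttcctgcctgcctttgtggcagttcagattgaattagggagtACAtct
Of the 29 H/ACA box genes with a count, 23 ended in ACANNN, and of the 67 C/D box genes none did. Snora7a had 71, 112, 106 and 138 counts, or 37.2%, 40.9%, 45.3% and 43.0% of H/ACA counts, a mean of 41.6% ± 3.45 (SD, n = 4). It was first in every library and did not overlap the next gene.

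Snora81, in Eif4a2, had 35, 31, 24 and 64 counts, 14.96% ± 4.88 (SD, n = 4) of the class. Libraries 1 and 4 were higher than 2 and 3 by share. Snora31, in Tpt1, had 14, 24, 24 and 27 counts, 8.69% ± 1.21. Snora62 and Snora70, in Rpsa and Rpl10, held 5.32% ± 2.55 and 5.03% ± 1.66, and Snora74a, Snora75, Snora16a, Snora24 and Snora26 held 4.17% to 1.59% each. Of 36 symbols, 29 had a count and 12 had one in all 4 libraries. In 18 of the 19 neighbouring pairs of the 20 leading genes the ranges overlapped, all those below Snora7a. Genes further apart in the order could still separate, as Snora81 (10.3% to 19.9%) did from Snora62 (2.19% to 7.48%). Ribosomal protein genes hosted 55.6% ± 1.85 (SD, n = 4) of H/ACA counts, through 10 of the 29 snoRNAs.

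Among Cajal body RNAs, Scarna6 was nearly alone. It lies in an intron of Atg16l1, an autophagy gene, at chr1:87784571-87784818 (plus strand), and had 510, 766, 745 and 1107 counts. This was 92.9%, 89.2%, 91.2% and 91.0% of the class, a mean of 91.1% ± 1.52 (SD, n = 4). Scarna9 in Cep295 had 9, 39, 33 and 45 counts and was lowest in library 1, at 3.48% ± 1.27 of the class. Scarna17 followed with 14, 17, 16 and 20 counts and Scarna3a with 4, 27, 13 and 24. Scarna2, Scarna3b, Scarna8 and Scarna13 had 17, 18, 9 and 7 counts over all libraries. Per kilobase Scarna6 held 71.4% of the class, since the Scarna9 row is 42 bases long and that of Scarna6 248.

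Rmrp, the RNA of RNase MRP, at chr4:43492785-43493059 (minus strand), was the most abundant transcript after Rn45s. It had 4447, 6739, 5788 and 8383 counts, 98.3% ± 0.309 (SD, n = 4) of its class. Per kilobase it stood at 483664 ± 16870 CPM, against 462238 ± 32167 for Mir30d and 93277 ± 1991 for Rn45s (SD, n = 4). The spread of Rmrp and Mir30d overlapped, and both stood above Rn45s on this scale in every library. The scale takes reads to cover each row evenly, so it does not give an order of molecules. Rpph1, the RNA of RNase P, had 71, 133, 83 and 107 counts, or 6449 ± 1413 CPM per kilobase. Rprl3, an RNase P-like RNA gene, had 36 counts.

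The remaining small RNAs were few. Vaultrc5, the vault RNA, had 71, 107, 75 and 116 counts, 81.4% ± 5.04 (SD, n = 4) of that group. The minor spliceosome RNAs Rnu12 and Rnu11 had 8, 11, 12 and 8 counts and 4, 18, 10 and 9 counts. Their ranges overlapped. Terc, the telomerase RNA, was at 0 in all 4 libraries.

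Host transcripts were led by Gas5, a growth arrest-linked long non-coding RNA. Its row had 981, 1274, 1431 and 1960 counts, 79.3% ± 1.93 (SD, n = 4) of host transcript counts with each symbol taken at its highest row. With all rows of a symbol summed Gas5 held 72.7%. The row, 2554 bases long in a gene of 3939 bases, matched a GENCODE transcript of 2556 bases. Exons of that transcript held 6 of the 10 snoRNA genes that GENCODE places in Gas5, and none of these 6 has a row of its own in the tables. Snord47, the guest with a row, lies outside those exons. The count of Gas5 thus cannot be divided between spliced transcript and snoRNAs.

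Other host rows matched their guests almost count for count. C430049B03Rik had 106, 174, 140 and 227 counts, and Mir351 with Mir503, both inside it, had 106, 174, 139 and 226. Mirlet7bhg had 57, 59, 89 and 87 counts against 289 in all for Mirlet7b and Mirlet7c-2. Mir17hg had 15, 27, 19 and 32 counts, a sum of 93 against 91 for Mir92-1, the only hairpin of the cluster that lies whole within the span of this row in RefSeq. Rabggtb rows of 1558 and 1574 bases had 1593 counts, and Snord45c had 1588, whereas the 3 shorter Rabggtb rows had 5 counts each.

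Where the row's transcript was matched in GENCODE, rows with a listed guest in an exon carried about that guest's counts. 1810032O08Rik, the gene RefSeq names Snhg16, has Snord1a in an exon of its row of 1997 bases, which had 56, 85, 61 and 63 counts against 264 in all for Snord1a. Its rows of 673 and 865 bases, without that snoRNA, had 1 count each. Snhg8 and Dancr, whose exons hold Snora24 and Snora26, had 25 and 18 counts against 22 and 16. The 12 matched rows with guests of at least 20 counts and none of them in an exon had a median of 4.5 counts, and the highest was Gas5.

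Other host rows had almost none of their guests' counts. 2410006H16Rik had 4, 2, 2 and 6 counts, while Snord49a, Snord65 and Snord49b inside it had 2853 in all. 1110038B12Rik had 16 counts against 363 for Snord52, and the Gnl3 row had 5 against 3531 for its snoRNAs. Over the 37 host rows whose guests had at least 20 counts, 26 had at most 10% of the guests' counts, 9 had at least 90%, and 2 lay between. Of those 9, 8 stood close to the guests' counts, and Gas5 had 196% of them.

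**Figure D4:**
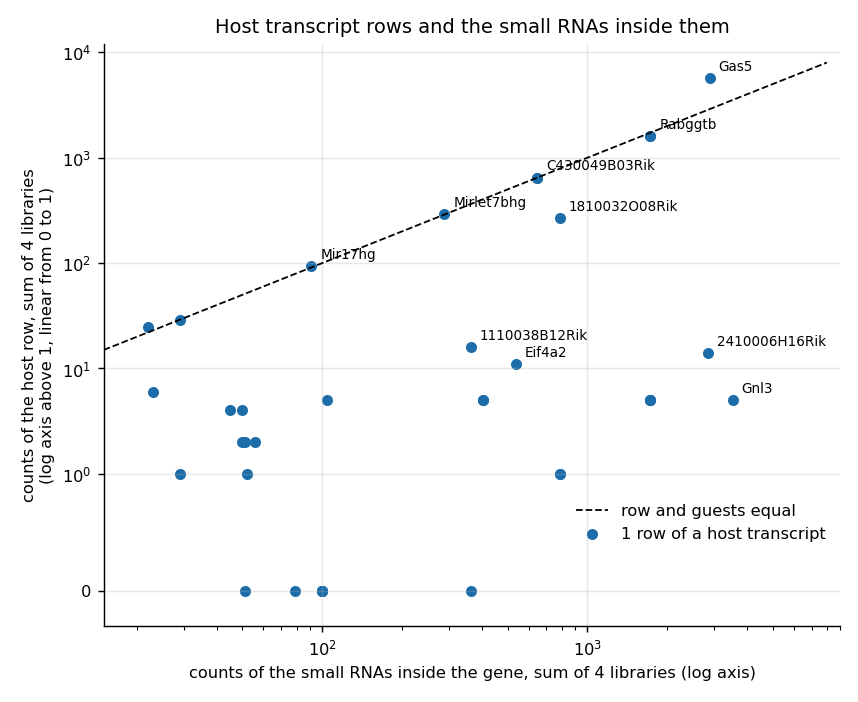
Counts of host transcript rows against counts of the small RNAs inside the gene, both summed over the 4 control libraries (log axes, the vertical one linear from 0 to 1), for the 37 rows whose guests had at least 20 counts. Of the 37 points, some of which coincide as rows of the same gene, 9 lie near or above the dashed line of equal counts. Examples are C430049B03Rik with 647 against 645 and Gas5 with 5646 against 2887. A further 26 lie far below it, as 2410006H16Rik with 14 against 2853, and 2 lie between.

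Among the other long non-coding RNAs counts were thin. The libraries were made for small RNA, so counts on these rows give an order of rows and not levels of the long transcripts. Gm10857 led with 177, 214, 187 and 298 counts, 34.7% ± 3.30 (SD, n = 4) of the class with each symbol at its highest row, and was first in every library. With all rows of a symbol summed it held 49.3%. Malat1, an abundant nuclear RNA of splicing speckles, was second with 78, 87, 78 and 164 counts, 15.7% ± 2.58. It was higher by share in libraries 1 and 4 than in 2 and 3. Next came 4922502N22Rik with 27, 66, 51 and 59 counts.

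Per kilobase the order changed. Gm10857 stood at 1654 ± 133 CPM per kilobase, 4922502N22Rik at 923 ± 226 and Malat1 at 301 ± 50.8 (SD, n = 4), so Malat1 came after 4922502N22Rik on that scale. Kcnq1ot1, with 41 counts over a row of 83437 bases, was seventh by counts and reached 2.64 ± 1.23 CPM per kilobase.

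Tug1 had 74 counts over the 4 libraries, Gm20125 56, 2900097C17Rik 46, A230072C01Rik 31, 1700001G11Rik 26, Neat1 21, 4933421O10Rik 16 and Trmt61b 14. A230072C01Rik had 7, 2, 20 and 2 counts, with library 3 the highest and a CV of 110% against 36.9% from counting. Pvt1 had 13 counts, Meg3 2 and Xist 1. Miat, the transcript targeted elsewhere in the series, had 0, 1, 1 and 1 counts in the controls. These counts were not read as the level of Miat, since the libraries were made for small RNA. Sox2ot, Firre, H19, Rian and Mirg were at 0. Of 1781 symbols in this class 274 had a count, 18 of them in all 4 libraries, and 101 transcripts were needed to reach 90% of its counts.

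Spread between the libraries was assessed for the 152 transcripts with at least 20 counts over the 4. The median CV of CPM was 30.6%, beside 23.6% expected from counting error, and 33 of the 152 were at or below their own counting error. For the 35 miRNAs the median CV was 26.4% beside 23.6% from counting, and 12 were at or below it. For the 56 C/D box snoRNAs it was 26.3% beside 17.3%, and for the 9 H/ACA box snoRNAs 46.0% beside 29.1%. The H/ACA value fell to 29.8% without library 2, so its place among the classes was not stable.

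Relative to counting error, Snord65 and Snord49a varied most of the 152. This measure favours transcripts with many counts, and the CV of Snord49a, 18.6%, was below the median of 30.6%. Snord65 had 11, 73, 21 and 21 counts, a CV of 85.9% beside 18.3% from counting, with library 2 alone high. Its neighbours in the same host, Snord49a and Snord49b, did not share that pattern: Snord49a was highest by share in library 4 and Snord49b in library 1. In 77 of the 152 transcripts the highest library was at most 2 times the lowest by CPM.

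**Figure D5:**
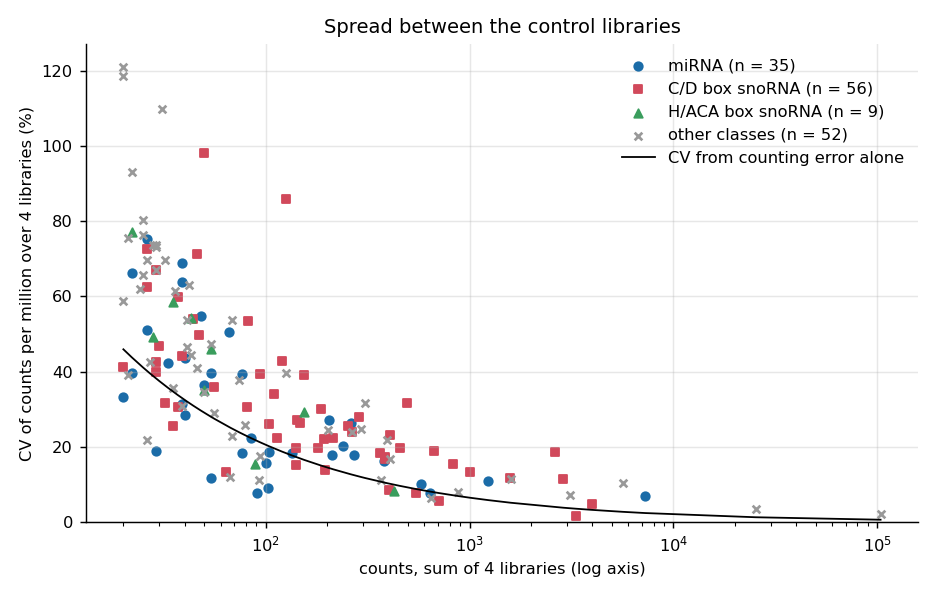
Coefficient of variation of CPM over the 4 control libraries (percent) against summed counts (log axis), by class, for the 152 transcripts with at least 20 counts; the line is the value from counting error alone. Of the 56 C/D box snoRNAs 11 are at or below their counting error, and of the 35 miRNAs 12, while Snord65 at 85.9% and Snord64 at 98.1% lie far above it.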

How the data were processed

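Small RNA libraries had been made from 1 ug of total RNA purified on columns, per the labels' protocols, which name no maker of the library kit and no size selection. The submitters' processing notes name STAR, GRCm38 and mm10. Each deposited table gave a read count, an FPKM and a TPM for 4529 non-coding transcripts. For the counting tool, its strand setting and its handling of reads that map to several places the sources used here give nothing. The counts, as the authors deposited them, were whole numbers with no normalization. The FPKM values, as the authors deposited them, were used only for row lengths (count divided by FPKM and total), which came out whole within 1.62e-07 bases.

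Shares and CPM (counts scaled to 1000000) used the sum over all rows. Total counts were 34263 to 65240 per control. Rows were matched to RefSeq (4415 by accession, 99 by symbol or synonym, 15 unmatched) and sorted into classes by biotype and symbol. Rows of a small RNA symbol were summed, leaving out 100 rows that repeated another row of their symbol in every control (1.72% to 1.88% of counts), and long transcripts were taken at their highest row. Class shares kept all rows. Hosts and exons came from GENCODE M21, and a row was matched to a transcript by RefSeq accession with lengths within 5%. The CV expected from counting error was the Poisson value at each library's total.

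The transcripts named are the leading 20 miRNAs, 12 C/D box, 10 H/ACA box, 8 Cajal body, 12 long non-coding and 10 host transcripts by mean share of class counts, other small RNAs with at least 10 counts, and up to 4 members of fixed family and marker lists. More family members, neighbours of 1 host and guests are named beside these because a result turned on them, after their values were seen. Members and lists were chosen with earlier results of these data known. No comparison between groups was made, so the only tests were the chi-square check of library identity and Dixon's test for a library far from the others. Alternatives covered the denominator, repeated rows, row length, detection rule, thinning to the smallest library, edgeR dispersion and leaving out each library; 2 were chosen after seeing the data. The spread and share calculations were tested on simulated data. Software was Python 3.11.15, pandas 2.3.3, numpy 2.4.6, scipy 1.17.1, matplotlib 3.10.9, R 4.3.3 and edgeR 4.0.16.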

Additional observations from a re-analysis of the deposited data

Results flagged for a closer look

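Among 79 values (11 class shares and the named transcripts with at least 20 counts), 5 had 1 library far from the other 3, with a gap to its nearest neighbour, as a share of the whole range, above Dixon's critical value for 4 samples; chance flags about 1 in 20 such groups. No class share was among them. Snord1b stood at 3862 CPM in library 3 against 2115 to 2401 elsewhere (gap 0.837 of the range). Snord88a stood at 3181 CPM in library 1 against 2155 to 2317 (0.842). Snora75 stood at 351.1 CPM in library 3 against 117 to 144 (0.885), on 15 counts. The long non-coding 2900097C17Rik stood at 398 CPM in library 3 against 185 to 204 (0.908), and Kcnq1ot1 at 374 CPM in library 3 against 164 to 175 (0.948), on 17 and 16 counts.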

How the results depend on the processing

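Outside Rn45s the shares became 29.7% for RNase P and MRP RNAs, 15.5% for miRNAs, 28.96% for C/D box and 1.18% for H/ACA box snoRNAs, 3.91% for Cajal body RNAs, 8.91% for host transcripts and 4.12% for long non-coding RNAs. Repeated rows counted once put long non-coding RNAs at 1.39%. Without the host rows that carried their guests' counts, a choice made after seeing the data, host transcripts fell to 3.24% of counts, with miRNAs at 7.26%, C/D box snoRNAs at 13.6% and long non-coding RNAs at 1.93%. Per kilobase Scarna6 held 71.4% of its class, Gas5 73.97% and Gm10857 26.6%, Cajal body RNAs needed 3 members for 90%, and 7 of the 12 leading long non-coding RNAs stayed among the leaders. With all rows of a symbol summed Gas5 held 72.7% and Gm10857 49.3%. Detection in at least 1 library gave 160 miRNAs, 29 H/ACA box snoRNAs, 26 host transcripts and 274 long non-coding RNAs. The common dispersion of edgeR with TMM factors, which leaves out counting error, gave a CV of 14.3% for miRNAs, 26.2% for H/ACA box snoRNAs and 12.9% for host transcripts, and a minimum of 40 counts gave 11.1% for host transcripts. Leaving out 1 library at a time put the median CV at 29.8% (without library 2) to 50.7% for H/ACA box snoRNAs, 8.80% (without library 1) to 31.5% for Cajal body RNAs, 13.6% (without library 4) to 28.4% for host transcripts and 21.9% (without library 3) to 36.6% for long non-coding RNAs. The other 128 of 132 values with 1 library left out stayed within the spread or within 1.5 times. For the shares this had to be so, since leaving out 1 of 4 libraries cannot move a mean by 1 SD. Their part of that count is thus no sign of stability. No class changed its leading member. Causes were not tested. No paired analysis was possible because only 1 group was described. Depth limits the low ranks: 103 of the 160 miRNAs were at 0 in some library, and each control has 3 counts at 46.0 to 87.6 CPM.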
